A study of Mus musculus with 16 samples.

Results

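The comparison described here is the loss of FXR in livers that already lack SHP. It sets 2 arrays of livers from FXR-/-/SHP-/- mice (the double knockout) against 2 arrays of livers from SHP-/- mice, all males of 5 weeks on the C57Bl/6 strain. A probe was included when its detection p-value, which ranks it among the negative controls of its array, was under 0.01 on both arrays of either group. This kept 10182 of 24613 probes (41.4%). Of these, 9110 met the limit in both groups, 555 in SHP-/- alone and 517 in the double knockout alone. The 111 probes just inside the limit had a median log2 intensity of 4.82 and the 462 just outside it 4.80, against 6.60 over all included probes. Included probes with 1 gene name numbered 9048 and stood for 7576 genes, each represented by its brightest probe.

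The series holds 16 liver arrays in 8 groups of 2, namely wild type, FXR-/-, SHP-/- and the double knockout at 3 and 5 weeks. Both groups compared here lack SHP from birth in every cell, so the contrast reads the added loss of FXR, also in every cell. It is set beside FXR-/- against wild type at 5 weeks and beside the double knockout against SHP-/- at 3 weeks, neither of which shares an array with it. Per the labels, both single knockouts were made congenic by backcrossing and then intercrossed for the double knockout, wild-type mice were purchased, and all ate normal chow. Replicate numbers are given without saying that duplicate arrays hold different mice. The p-values therefore measure only how far these arrays spread, which may be technical.

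FXR (gene Nr1h4) is a nuclear receptor that bile acids activate. In liver it lowers bile acid synthesis and raises bile acid export, and part of the first effect runs through SHP (gene Nr0b2), an orphan receptor that lacks a DNA-binding domain and represses other nuclear receptors. Bile acids and foreign compounds are also ligands or activators of the receptors CAR and PXR, which induce detoxifying enzymes and carriers.

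On the 4 arrays 9966 to 10431 probes were detected. The biotin labelling control of the second double-knockout array read 903.0, against 2958.6 on the first and 3098.7 and 3151.2 on the SHP-/- arrays. The standard deviation over probes of the difference between duplicates was 1.27 bead standard errors in SHP-/- and 1.45 in the double knockout, and between arrays of different genotype 3.37 to 3.54. Pancreatic transcripts stood apart. The mean log2 intensity over 25 exocrine pancreas genes was 7.77 and 7.75 in SHP-/- and 5.04 and 5.03 in the double knockout, beside 4.95 and 4.98 in wild type and 5.78 and 5.78 in FXR-/-. Skeletal muscle transcripts were low in FXR-/-: the mean over 21 genes was 8.31 and 8.30 in SHP-/-, 8.04 and 8.07 in the double knockout, 7.49 and 7.44 in wild type and 4.70 and 4.66 in FXR-/-. In bulk tissue fewer cells of a type and less RNA per cell cannot be told apart. Hepatocyte markers were bright on all 4 arrays, with list means of 12.38 and 12.36 in SHP-/- and 12.32 and 12.25 in the double knockout.

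Nr1h4 was examined first. Its log2 intensity was 11.18 and 11.03 in SHP-/- and 5.87 and 6.17 in the double knockout. The groups did not overlap, and a low signal was detected on both double-knockout arrays. The log2 difference was -5.08 ± 0.11, or 33.9-fold lower (limma, adjusted p = 9.42e-17). Here and below, values after ± are standard errors of the log2 difference with n = 2 arrays a group, and a gene is said to have risen or fallen when its p-value, adjusted over all included probes, was under 0.05. The position of the probe relative to the deleted part of the gene is not given in the sources used here. Nr0b2 was not detected in any group, so the loss of SHP that both groups share was not checked through its own transcript.

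Of the 7576 genes, 1776 passed this threshold (23.4%), 1010 higher (13.3%) and 766 lower (10.1%). The count was 1140 without the first SHP-/- array. At least 2-fold differences were reached by 232 of the changed genes (3.06% of all), 141 higher (1.86%) and 91 lower (1.2%). The 2-fold count was 142 with quantile normalization without background correction and 119 in the processed table of the authors. It includes fitted differences against undetected groups, whose sizes are not measured. With only probes detected on all 4 arrays it was 165, 103 higher and 62 lower. The arrays of the groups did not overlap for 4682 genes (61.8%). The median difference over all genes was 0.01. The largest rises were in Sult2a2, Cyp2b13, Cyp17a1, Cyp2c55 and Cyp2b9, which encode a sulfotransferase and cytochrome P450 enzymes. Outside the pancreas list the largest falls were in Nr1h4, Cyp4a12b, Elovl3 and Ang. Gene groups below are described by how many members passed, to be read against these shares. A gene undetected in 1 group was included through the other, where it is higher, and its direction was fixed by that. Of the tested genes 6864 were detected on all 4 arrays, of which 897 rose and 684 fell, and for lists with several such members the counts among members detected on all 4 are given.

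**Figure D1:**
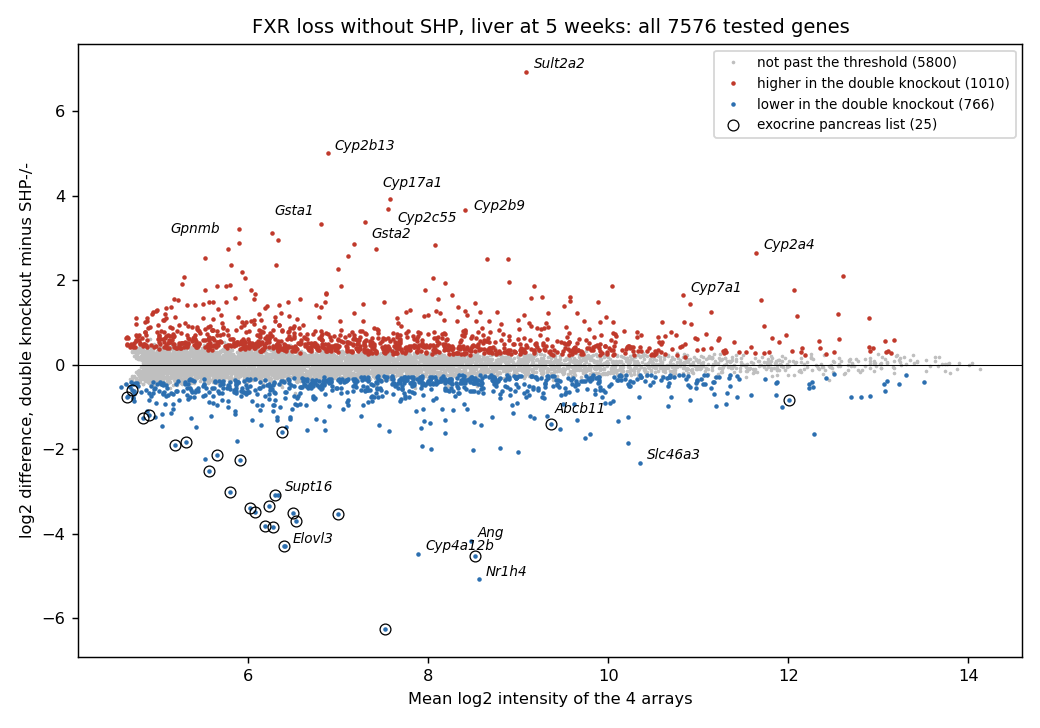
Log2 difference between the double knockout and SHP-/- at 5 weeks (vertical) against mean log2 intensity (horizontal), 1 point per gene. Of 7576 genes 1010 were higher and 766 lower at an adjusted p under 0.05, and all 25 exocrine pancreas genes lie below 0.

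Genes of bile acid synthesis did not move one way. Of 9 tested, 2 rose, 3 fell and 4 did not pass, with a median log2 difference of -0.09. Cyp7a1, the rate-limiting enzyme of the classic pathway, read 9.97 and 10.06 in SHP-/- and 11.66 and 11.65 in the double knockout. Both double-knockout arrays lay above both SHP-/- arrays, and Cyp7a1 rose by 1.64 ± 0.10, or 3.12-fold (adjusted p = 8.49e-10). Cyp8b1, the sterol 12-alpha-hydroxylase needed for cholic acid, read 12.99 and 12.90 against 13.14 and 13.40 and rose by 0.33 ± 0.08 (adjusted p = 0.00768). It missed the threshold when an array was left out, at 0.20 without the second double-knockout array (adjusted p = 0.148) and 0.29 without the second SHP-/- array (adjusted p = 0.0827). Cyp7b1, the oxysterol 7-alpha-hydroxylase of the alternative pathway, read 11.09 and 11.07 against 10.33 and 10.29. It fell by 0.77 ± 0.12 (adjusted p = 8.78e-05). Cyp27a1, the sterol 27-hydroxylase of that pathway, fell by 0.39 ± 0.08 (adjusted p = 0.0016), and its second probe was -0.75 ± 0.11 (adjusted p = 3.43e-05). Scp2, a peroxisomal thiolase of side-chain shortening, fell by 0.24 ± 0.07 (adjusted p = 0.0232), but did not pass when any 1 of the 4 arrays was left out (-0.24 to -0.23). In all, 3 of the 9 genes passed without the second double-knockout array and 3 without the second SHP-/- array.

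Of 8 tested genes of bile acid conjugation and sulfation, 1 rose and 1 fell, a share near that over all genes. Sult2a2, a sulfotransferase of steroids and bile acids, showed the largest rise of all genes and read 5.58 and 5.67 in SHP-/- and 12.47 and 12.65 in the double knockout. This was a rise of 6.94 ± 0.10, or 122-fold (adjusted p = 1.14e-18). Sult2a8, another bile acid sulfotransferase of mouse liver, fell by 0.85 ± 0.13 (adjusted p = 9.75e-05). Slc27a5, the bile acid CoA ligase, was -0.11 ± 0.08 and Baat, which joins bile acids to taurine, -0.13 ± 0.24, neither passing. Genes of the Sult2a, Cyp2b, Cyp2a, Cyp2c, Cyp4a12, Gsta and Hbb families have close copies, so a probe may also bind a relative and the assignment to 1 gene is uncertain throughout.

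At the canalicular membrane, where bile is formed, Abcb11 was lower. Abcb11, the bile salt export pump and a direct FXR target, read 9.96 and 9.91 in SHP-/- and 8.56 and 8.87 in the double knockout. The groups did not overlap, and it fell by 1.22 ± 0.09, or 2.33-fold (adjusted p = 1.12e-08). Abcc2, the exporter of conjugated bilirubin, rose by 0.45 ± 0.08 (adjusted p = 0.000618), and its dimmer probe was 0.25 ± 0.14 (adjusted p = 0.231). Abcb4, the phospholipid floppase, was -0.01 ± 0.07, and the sterol exporters Abcg5 and Abcg8 were -0.15 ± 0.09 and 0.16 ± 0.09, none of them passing. In all 1 of 5 rose and 1 fell.

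On the blood side of the hepatocyte, 2 of 3 efflux genes rose and 1 fell. Abcc4, an exporter of bile acids and conjugates, read 5.12 and 4.92 in SHP-/- and 6.45 and 6.56 in the double knockout and rose by 1.48 ± 0.14 (adjusted p = 2.86e-07). Abcc3, its relative for glucuronides, rose by 0.39 ± 0.10 (adjusted p = 0.00915) and missed the threshold at 0.30 without the second double-knockout array (adjusted p = 0.108) and 0.33 without the second SHP-/- array (adjusted p = 0.104). Slc51b, the beta subunit of the organic solute transporter and an FXR target, read 5.15 and 5.19 in SHP-/- and 4.29 and 4.31 in the double knockout, where it was not detected. It was at least 1.26-fold lower (adjusted p = 2.59e-05), a bound in which an undetected array is set to its own lowest detected signal, as in all bounds below. Its partner Slc51a was detected in neither group. Of 5 uptake genes 2 rose and 3 fell. Slco1a4, an organic anion carrier, rose by 1.42 ± 0.15 (adjusted p = 1.35e-06) and Ephx1, an epoxide hydrolase, rose by 1.43 ± 0.09 (adjusted p = 1.44e-09). Slco1b2, a bile acid carrier, fell by 0.62 ± 0.13 (adjusted p = 0.00162). Slc10a1, the sodium taurocholate carrier, gave a dim signal of 5.98 and 6.29 against 5.67 and 5.52 and fell by 0.54 ± 0.15 (adjusted p = 0.0109). Its value was -0.47 without the second double-knockout array (adjusted p = 0.0869) and -0.38 without the second SHP-/- array (adjusted p = 0.155). Slco2b1 fell by 0.29 ± 0.09 (adjusted p = 0.0337) but did not pass when any 1 array was left out (-0.33 to -0.24). Without the second double-knockout array 3 uptake genes passed, and without the second SHP-/- array 3.

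**Figure D2:**
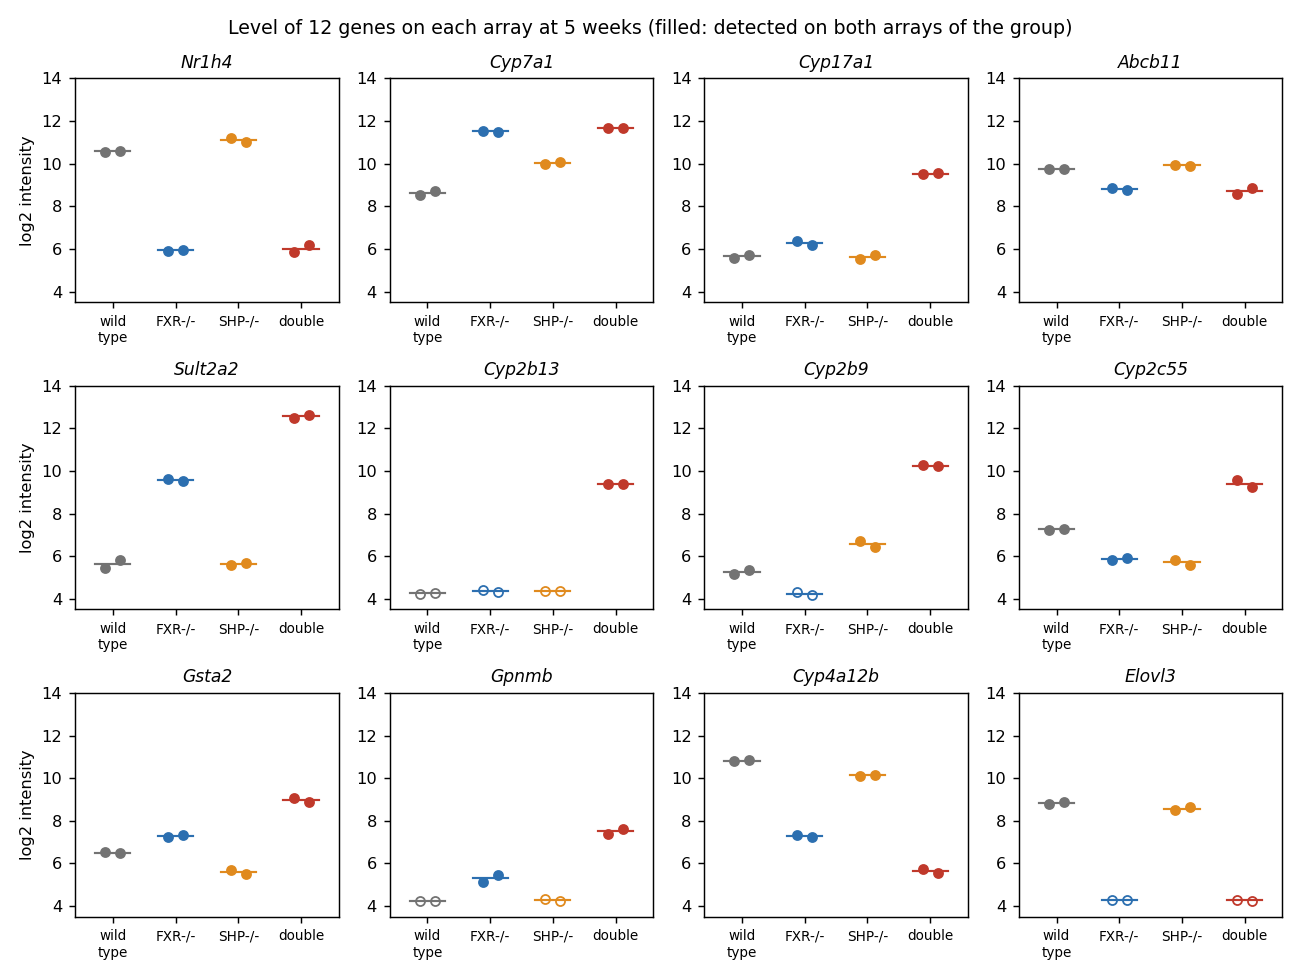
Log2 intensity of selected genes on each array of 5 weeks, by genotype, 1 point per array. Sult2a2 reads 12.47 and 12.65 in the double knockout against 5.58 and 5.67 in SHP-/-, while Nr1h4 is low in both groups without FXR.

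Genes reported as FXR targets were mixed. Of 18 tested, 4 rose, 6 fell and 8 did not pass, with a median of -0.01 against 0.01 over all genes. Osgin1, an oxidative stress induced growth inhibitor, fell most and read 10.64 and 10.62 in SHP-/- and 8.91 and 9.04 in the double knockout. It fell by 1.65 ± 0.10, or 3.14-fold (adjusted p = 2.53e-10). Apoc2, the activator of lipoprotein lipase, read 8.66 and 8.70 against 7.64 and 7.63 and fell by 1.04 ± 0.12, or 2.06-fold (adjusted p = 3.56e-06). Neither gene's groups overlapped. Ddah1, which degrades methylated arginine, fell by 0.92 ± 0.10 (adjusted p = 8.69e-07). Insig2, which retains the SREBP complex in the ER, fell by 0.34 ± 0.09 (adjusted p = 0.00648) and missed the threshold at -0.30 without the second double-knockout array (adjusted p = 0.063) and -0.29 without the second SHP-/- array (adjusted p = 0.0834). The rises were Igfbp1, a binding protein of insulin-like growth factors (1.37 ± 0.20), Vldlr, a lipoprotein receptor (1.23 ± 0.13), Pdk4, an inhibitor of glucose oxidation (0.56 ± 0.11), and Fetub, a plasma protease inhibitor (0.48 ± 0.09). Klb, the co-receptor for the intestinal FXR signal, was 0.17 ± 0.13 and did not pass, and its partner Fgfr4 was detected in neither group.

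The stretches before Abcb11, Slc51b and Apoc2 are shown because these FXR targets fell and each holds AGGTCA. Nuclear receptors of this class read that 6-letter motif. Since the stretches were picked in this way, they cannot show a link between motif and fall. The window of Osgin1, which fell more than Abcb11, holds 0 copies, and that of Abcc2, which rose, holds 1. The motif was searched on both strands of the 250 bases before each start in the promoter table of RefSeq (mouse GRCm38.p6). Windows existed for 13 of 19 genes of an FXR, SHP and bile acid panel, and 7 genes held the motif in at least 1 window. Of all 32851 windows 14% hold it. The first count is by gene and the second by window, so they are not alike and were not tested. Shares among tested genes are given further below. The motif begins at -56 from the start of Abcb11, on the strand opposite to the printed one. It begins at -203 in Slc51b and -115 in Apoc2, as printed. The usual FXR element is an inverted pair with 1 base between the copies. With every letter matching, such a pair was in none of the windows of named genes and in 0.00609% of all windows. Pairs with a mismatch were not searched, and the Abcb11 window holds one, aggccatTGACCT. The windows are chr2:69342617-69342866, chr9:65422774-65423023 and chr7:19677942-19678191, all on the minus strand, written 5′ to 3′ towards the start with the motif in capitals.
Abcb11: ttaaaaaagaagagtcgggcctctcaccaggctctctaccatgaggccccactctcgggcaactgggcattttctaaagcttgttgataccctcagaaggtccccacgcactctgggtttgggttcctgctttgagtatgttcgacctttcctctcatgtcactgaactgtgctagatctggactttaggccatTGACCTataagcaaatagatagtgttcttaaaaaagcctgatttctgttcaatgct
Slc51b: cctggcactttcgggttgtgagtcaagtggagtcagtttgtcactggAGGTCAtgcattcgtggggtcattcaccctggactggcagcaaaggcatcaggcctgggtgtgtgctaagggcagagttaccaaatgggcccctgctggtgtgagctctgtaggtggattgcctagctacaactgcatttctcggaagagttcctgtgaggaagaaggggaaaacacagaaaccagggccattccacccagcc
Apoc2: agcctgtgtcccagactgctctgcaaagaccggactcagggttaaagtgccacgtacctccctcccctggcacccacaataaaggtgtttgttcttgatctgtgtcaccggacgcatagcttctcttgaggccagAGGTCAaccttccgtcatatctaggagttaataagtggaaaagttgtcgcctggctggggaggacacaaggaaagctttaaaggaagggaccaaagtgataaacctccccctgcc

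Targets of CAR and PXR mostly rose. Of 22 tested, 20 rose, 1 fell and 1 did not pass, with a median of 0.71. Of the 20 detected on all 4 arrays 18 rose and 1 fell. Cyp2b13 and Cyp2b9, P450 enzymes that are higher in female than in male mouse liver, led the list. Cyp2b13 read 4.38 and 4.39 in SHP-/- and 9.38 and 9.40 in the double knockout, was not detected in SHP-/- and was at least 23.5-fold higher in the double knockout (adjusted p = 9.42e-17). Cyp2b9 read 6.73 and 6.43 in SHP-/- and 10.26 and 10.21 in the double knockout and rose by 3.65 ± 0.10, or 12.6-fold (adjusted p = 9.64e-15). Neither gene's groups overlapped. Cyp2c55, another inducible P450, read 5.84 and 5.59 against 9.57 and 9.23 and rose by 3.68 ± 0.13, or 12.8-fold (adjusted p = 2.04e-13). Cyp2b10, the classic CAR target, read 5.74 and 5.92 against 8.57 and 8.24 and rose by 2.58 ± 0.15, or 5.98-fold (adjusted p = 3.06e-10). Alas1, the first step of haem synthesis, rose by 1.78 ± 0.08 and Cyp2c29 rose by 1.52 ± 0.17. Cyp3a11, the main PXR target, rose by 0.60 ± 0.09 (adjusted p = 6.48e-05). Cyp2c39 was the exception and fell by 0.64 ± 0.10 (adjusted p = 0.000116), and Ugt1a1, which conjugates bilirubin, was 0.22 ± 0.10 and did not pass.

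The windows before Cyp2b13 and Cyp2b9 are shown because these genes rose together and their windows match at 248 of 250 positions (99.2%). The window of Cyp2b10 matches that of Cyp2b9 at 66 positions, read base against base without gaps. Each of the printed windows holds AGGTCA at -138, in capitals. They are chr7:26061245-26061494 and chr7:26173159-26173408 on the plus strand of GRCm38.p6, from RefSeq. Among tested genes with a window the motif was in 12.8% of those that rose, 12.3% of those that fell and 11% of the rest.
Cyp2b13: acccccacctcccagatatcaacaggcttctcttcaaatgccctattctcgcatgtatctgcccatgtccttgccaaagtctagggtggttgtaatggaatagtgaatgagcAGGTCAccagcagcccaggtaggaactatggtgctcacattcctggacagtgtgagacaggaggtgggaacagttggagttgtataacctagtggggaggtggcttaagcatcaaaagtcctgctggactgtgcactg
Cyp2b9: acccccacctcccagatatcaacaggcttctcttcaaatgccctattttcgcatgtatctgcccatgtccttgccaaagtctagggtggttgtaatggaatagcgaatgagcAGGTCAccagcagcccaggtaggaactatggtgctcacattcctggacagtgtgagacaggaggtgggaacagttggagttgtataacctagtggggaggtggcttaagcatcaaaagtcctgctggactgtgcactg

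Targets of NRF2, the transcription factor of the response to electrophiles, also rose. Of 15 tested, 12 rose, none fell and 3 did not pass, with a median of 1.03. Gsta2 and Gsta1, glutathione transferases of class alpha, rose most. Gsta2 read 5.69 and 5.52 in SHP-/- and 9.07 and 8.90 in the double knockout and rose by 3.38 ± 0.12, or 10.4-fold (adjusted p = 2.24e-13). Gsta1 read 5.12 and 5.16 against 8.66 and 8.31 and rose by 3.34 ± 0.15, or 10.1-fold (adjusted p = 4.89e-12). The groups did not overlap for either gene. The class mu transferases Gstm3 and Gstm2 rose by 2.75 ± 0.18 and 1.54 ± 0.07, Hmox1, which degrades haem, by 1.30 ± 0.09 and Srxn1, which repairs peroxiredoxins, by 1.03 ± 0.09. Nqo1, a quinone reductase, rose by 0.51 ± 0.14 (adjusted p = 0.0129), and did not pass without the second double-knockout array or either SHP-/- array (0.45 to 0.52, adjusted p 0.0576 to 0.0936). Gclm, a subunit of the enzyme that starts glutathione synthesis, rose by 0.26 ± 0.08 and was lost under the same omissions (0.19 to 0.27, adjusted p 0.0852 to 0.213). The double-knockout arrays lay apart for its partner Gclc (6.32 and 5.25) and for thioredoxin reductase, Txnrd1 (6.02 and 5.0). Their differences of 0.23 ± 0.28 and -0.07 ± 0.27 did not pass. Without the second double-knockout arrays of both ages Gclc was 0.76 (adjusted p = 0.0268).

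Genes that differ between the sexes in mouse liver changed in these males. Of 24 female-biased genes listed, 10 were tested and 10 rose. Of these 7 were detected on all 4 arrays, and 3 were not detected in SHP-/- and were included through the double knockout, where they are high. The median was 1.73, or 1.27 with undetected genes at their bounds. With no filter on detection 11 of 18 passed. Of 13 male-biased genes 9 fell, 1 rose and 3 did not pass, with a median of -0.75, and of 12 detected on all 4 arrays 8 fell. Cyp2b9, Cyp2b13 and Cyp2a4 are in both the female-biased list and that of CAR and PXR targets. Cyp17a1, the steroid 17-alpha-hydroxylase, read 5.53 and 5.71 in SHP-/- and 9.52 and 9.55 in the double knockout. The groups did not overlap, and it rose by 3.91 ± 0.10, or 15.1-fold (adjusted p = 4.37e-15). Cyp2a4, a testosterone hydroxylase, read 10.33 and 10.30 against 13.01 and 12.92 and rose by 2.64 ± 0.08. Acot3, a peroxisomal thioesterase, and Hao2, a hydroxy acid oxidase, were not detected in SHP-/- and were at least 2.61-fold and at least 2.18-fold higher. Abcd2, a peroxisomal fatty acid transporter, rose by 1.16 ± 0.11.

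Of the male-biased genes Cyp4a12b and Elovl3 fell most. Cyp4a12b, a fatty acid hydroxylase, read 10.12 and 10.14 in SHP-/- and 5.73 and 5.57 in the double knockout and fell by 4.48 ± 0.12, or 22.3-fold (adjusted p = 3.02e-15). Elovl3, an elongase of very long chain fatty acids, read 8.50 and 8.63 in SHP-/- and 4.27 and 4.25 in the double knockout, where it was not detected, and was at least 13.3-fold lower (adjusted p = 1.85e-14). Neither gene's groups overlapped. Cyp4a12a, the close copy of Cyp4a12b, fell by 1.0 ± 0.09, Hsd3b5, a hydroxysteroid dehydrogenase, by 0.92 ± 0.12 and Cyp2d9, a testosterone hydroxylase, by 0.75 ± 0.09. Egfr, the receptor of epidermal growth factor, fell by 0.30 ± 0.07 and missed the threshold at -0.28 without the first SHP-/- array (adjusted p = 0.0577). Susd4, a complement regulator, rose by 0.64 ± 0.15. Serpina1e, an antitrypsin, was -0.19 ± 0.08 and Mup3, a urinary protein, 0.05 ± 0.12, neither passing.

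**Figure D3:**
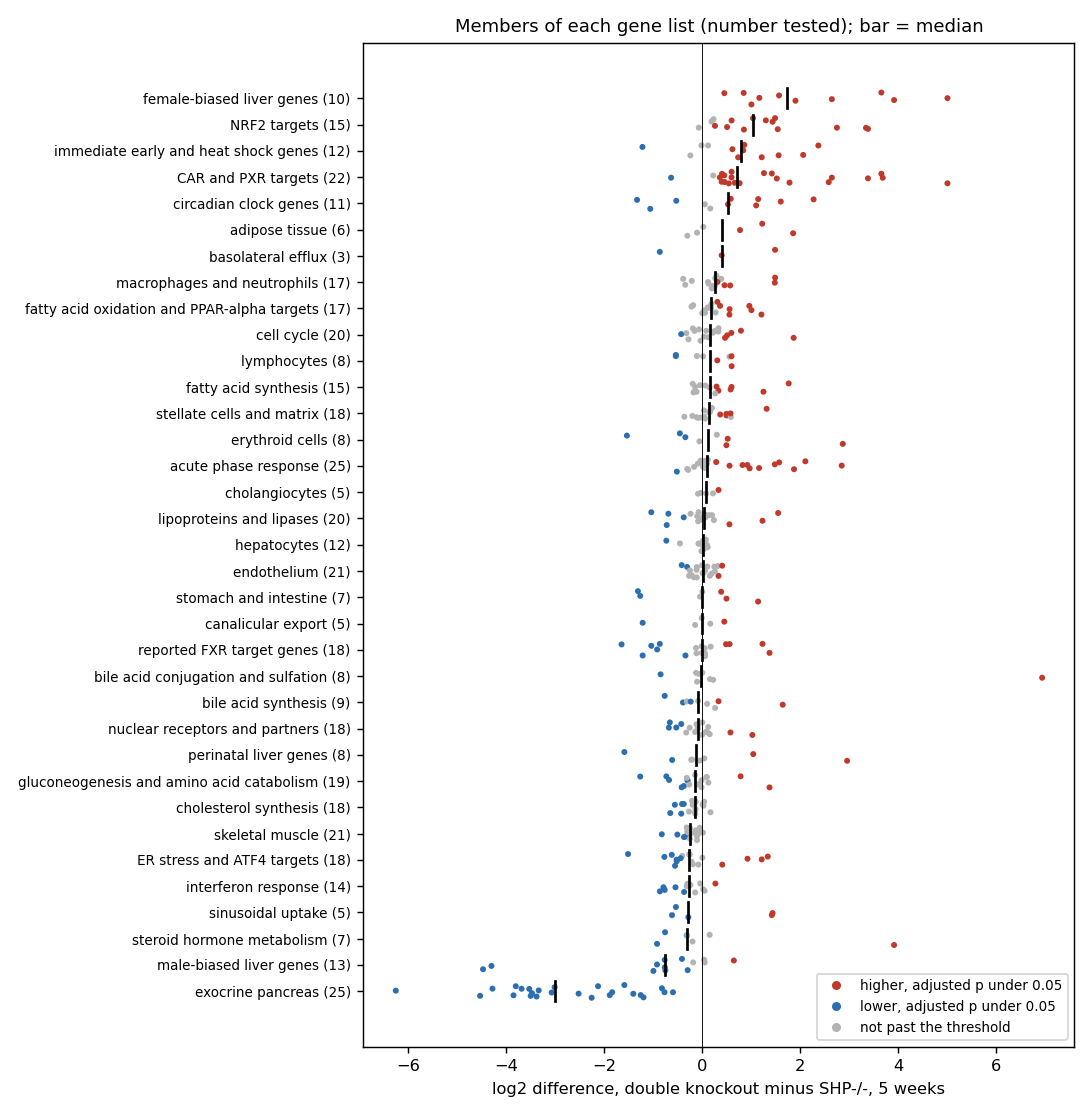
Log2 difference between the double knockout and SHP-/- at 5 weeks for the tested members of each gene list, 1 point per gene. Female-biased genes have a median of 1.73, targets of NRF2 of 1.03, male-biased genes of -0.75 and exocrine pancreas genes of -3.02, and several lists share genes.

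Other steroid enzymes were mixed. Of 7 tested, 1 rose and 3 fell. Hsd17b2, which inactivates oestradiol and testosterone, fell by 0.76 ± 0.12 (adjusted p = 8.04e-05). Hsd11b1, which regenerates corticosterone, fell by 0.32 ± 0.10 (adjusted p = 0.0287) and did not pass without the second double-knockout array or either SHP-/- array (-0.35 to -0.26). Among 18 nuclear receptors and partners 2 rose and 4 fell. Cebpb, a transcription factor of the acute response, rose by 1.02 ± 0.08. Foxa1, a pioneer factor of liver chromatin, fell by 0.66 ± 0.12. Its relative Foxa2 fell by 0.68 ± 0.20 (adjusted p = 0.0175) and was -0.38 without the second double-knockout array (adjusted p = 0.262), -0.69 without the first SHP-/- array (adjusted p = 0.0805) and -0.68 without the second SHP-/- array (adjusted p = 0.087).

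Lipid synthesis genes moved apart. Of 18 cholesterol synthesis genes none rose, 5 fell and 13 did not pass, with a median of -0.16. Mvk, mevalonate kinase, fell by 0.65 ± 0.12, Tm7sf2, a sterol reductase, by 0.43 ± 0.09 and Nsdhl, a sterol dehydrogenase, by 0.41 ± 0.07. Mvd, mevalonate diphosphate decarboxylase, fell by 0.56 ± 0.12 and was -0.38 without the first double-knockout array (adjusted p = 0.0588). Pmvk, phosphomevalonate kinase, fell by 0.38 ± 0.12 and did not pass without either double-knockout array or the first SHP-/- array (-0.41 to -0.31). Without the first double-knockout array 3 of the 18 passed. Hmgcs1, which makes HMG-CoA, was 0.04 ± 0.07. Of 15 fatty acid synthesis genes 6 rose and none fell. Pnpla3, a lipid droplet protein, rose by 1.76 ± 0.13, Elovl6, an elongase of palmitate, by 1.25 ± 0.10 and Thrsp, a lipogenic nuclear protein, by 0.58 ± 0.12. Fasn, fatty acid synthase, was -0.05 ± 0.16, and Acly, the source of cytosolic acetyl-CoA, -0.18 ± 0.08, neither passing. Scd1, stearoyl-CoA desaturase, was 0.26 ± 0.13 and passed at 0.48 without the second double-knockout array (adjusted p = 0.0164).

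Of 17 genes of fatty acid oxidation and PPAR-alpha 7 rose and none fell. The omega-hydroxylases Cyp4a10 and Cyp4a14 rose by 1.21 ± 0.07 and 1.0 ± 0.08. Fgf21, a fasting hormone, was not detected in SHP-/- and was at least 1.33-fold higher (adjusted p = 3.85e-05). Among 20 genes of lipoproteins and lipases 3 rose and 4 fell. Apoa4, an apolipoprotein of liver and gut, read 7.38 and 7.30 in SHP-/- and 9.10 and 8.68 in the double knockout and rose by 1.55 ± 0.12 (adjusted p = 2.54e-08). Pparg, the receptor of adipocyte differentiation, read 4.63 and 5.03 against 6.70 and 6.66 and rose by 1.85 ± 0.14 (adjusted p = 1.2e-08). It was detected on 1 of the SHP-/- arrays. It is 1 of 6 tested adipose markers, of which 3 rose, but only 3 were detected on all 4 arrays and 1 of those rose, the lipid droplet gene Plin4 (1.22 ± 0.15). Cidec, another lipid droplet gene, was not detected in SHP-/- and was at least 1.53-fold higher (adjusted p = 0.00327). Adipoq, the adipocyte hormone of that list, was not detected in the double knockout and did not pass (adjusted p = 0.122).

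Acute phase genes rose in part: 11 of 25 rose, 1 fell and the median was 0.09. Mt2, a metallothionein that binds zinc and copper, read 6.63 and 6.68 in SHP-/- and 9.47 and 9.53 in the double knockout and rose by 2.85 ± 0.09, or 7.19-fold (adjusted p = 2.92e-14). The groups did not overlap. Mt1, its neighbour, rose by 2.10 ± 0.07, Lcn2, an iron-trapping protein, by 1.87 ± 0.08 and Saa2, a serum amyloid, by 1.57 ± 0.12. Socs3, an inhibitor of cytokine signalling, fell by 0.52 ± 0.13 (adjusted p = 0.00738) and missed the threshold at -0.47 without the first double-knockout array (adjusted p = 0.0558) and -0.46 without the second SHP-/- array (adjusted p = 0.0772). In the interferon response 1 of 14 rose and 5 fell, among them the immunoproteasome subunits Psmb8 (-0.87) and Psmb9 (-0.79) and Ifi27 (-0.77).

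Immediate early and heat shock genes, which respond to handling, rose in 8 of 12 cases and fell in 1, and of 10 detected on all 4 arrays 6 rose. Fos, a subunit of AP-1, read 4.70 and 4.56 in SHP-/- and 7.08 and 6.92 in the double knockout, was not detected in SHP-/- and was at least 4.48-fold higher (adjusted p = 3.79e-10). Its partner Jun rose by 2.06 ± 0.15. Clock genes differed too, 6 of 11 higher and 3 lower, or 4 and 3 of 9 detected on all 4 arrays. Dbp, a clock output factor, rose by 1.60 ± 0.11 and Noct, a rhythmic deadenylase, by 2.27 ± 0.11, while the core clock genes Arntl and Nr1d2 fell by 1.06 ± 0.13 and 1.33 ± 0.12. The time of day at collection is not given in the labels, and the part of handling and time in the differences of other genes was not tested. Of 18 genes of ER stress and ATF4 4 rose and 7 fell, or 2 and 7 of 16 detected on all 4 arrays. Creld2, an ER protein, fell by 1.52 ± 0.08, beside pancreas genes lower by a median of -3.02, whose part in it was not tested. Psat1, of serine synthesis, was not detected in SHP-/- and was at least 1.90-fold higher (adjusted p = 7.45e-06).

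Of 19 genes of gluconeogenesis and amino acid catabolism 2 rose and 6 fell. Cth, the last step of transsulfuration, read 9.78 and 9.83 in SHP-/- and 8.83 and 8.25 in the double knockout and fell by 1.27 ± 0.16 (adjusted p = 1.22e-05). Ass1, of the urea cycle, fell by 0.73 ± 0.07. Pck1 and G6pc, control points of glucose output, were -0.27 ± 0.15 and -0.06 ± 0.09 and did not pass. In the cell cycle 5 of 20 rose and 1 fell. Cdkn1a, the inhibitor p21, read 6.23 and 5.97 against 7.99 and 7.94 and rose by 1.86 ± 0.12 (adjusted p = 1.11e-09), and its second probe was 1.67 ± 0.11 (adjusted p = 2.18e-09). Cyclin D1, Ccnd1, rose by 0.79 ± 0.09 and the replication helicase subunit Mcm2 by 0.59 ± 0.15.

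Markers of cell types were counted next. Of 12 hepatocyte markers 11 did not pass, with a median of 0.01, and Alb, serum albumin, whose probe gave a dim signal detected on 1 of the double-knockout arrays, was -0.46 ± 0.20 and passed only at -0.88 without the first double-knockout array (adjusted p = 0.00162). Exocrine pancreas genes fell in 25 of 25 cases, with a median of -3.02, or -2.47 with undetected genes at their bounds. Of these, 20 were not detected in the double knockout and were included through SHP-/-, where they are high, and all 5 detected on all 4 arrays fell. Ctrb1, a chymotrypsinogen, read 10.64 and 10.66 in SHP-/- and 4.33 and 4.46 in the double knockout, where it was not detected, and was at least 56.4-fold lower. None of the 8 endocrine markers on the array met the limit of detection in either group. Among 21 skeletal muscle genes 5 fell and none rose, and 1 to 3 passed when an array was left out, 9 without background correction, 11 in the processed table of the authors and 9 with only the arrays of 5 weeks. Of 7 stomach and intestine genes 3 rose and 2 fell, and 3 passed without the first double-knockout array and 3 when detection on all 4 arrays was required.

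Among 17 macrophage and neutrophil genes 5 rose and none fell, and 3 passed without the first SHP-/- array, and of 15 detected on all 4 arrays 4 rose. S100a8, a calcium-binding protein of neutrophils, rose by 1.49 ± 0.12 and Cd14, a receptor for endotoxin, by 1.48 ± 0.18. Of 18 stellate cell and matrix genes 5 rose and none fell, with 3 passing without the first double-knockout array and 2 without the second SHP-/- array, and 2 to 8 over all settings. Timp1, an inhibitor of matrix proteases, rose by 1.31 ± 0.14. Of 5 cholangiocyte markers 1 rose, the water channel Aqp1 (0.33 ± 0.08), which endothelium also expresses and which missed the threshold at 0.24 without the first double-knockout array (adjusted p = 0.0936) and 0.31 without the second SHP-/- array (adjusted p = 0.0557). Its second probe was -0.17 ± 0.12 (adjusted p = 0.328), and with median scaling 0 of the markers passed. Endothelial markers gave 2 rises and 2 falls among 21, with 1 to 3 passing when an array was left out and 7 with array weights. Lymphocyte markers gave 3 rises and 2 falls among 8, with 2 to 4 passing when an array was left out. Of 8 erythroid markers 3 rose and 3 fell, with a median of 0.12. Globin probes went in opposite directions here, and in the same ones in FXR-/- against wild type at 5 weeks and in the double knockout against SHP-/- at 3 weeks. Hbb-b2 read 5.72 and 5.77 in SHP-/- and 8.68 and 8.55 in the double knockout and rose by 2.87 ± 0.10. Hbb-bt read 7.47 and 7.39 against 6.10 and 5.67 and fell by 1.54 ± 0.14. At 5 weeks the mean of Hbb-b2 was 4.84 in wild type, where it was not detected, and 9.42 in FXR-/-. That of Hbb-bt was 7.35 in wild type and 4.82 in FXR-/-, where it was not detected. The cause of this exchange was not tested, and no erythroid content is read from these probes.

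The other genes of largest change are in none of these groups. Gpnmb, a glycoprotein of lipid-laden macrophages, read 4.34 and 4.25 in SHP-/- and 7.40 and 7.61 in the double knockout, was not detected in SHP-/- and was at least 6.37-fold higher (adjusted p = 4.02e-12), and its second probe was 1.15 ± 0.13 (adjusted p = 2.03e-06). Slc46a3, a lysosomal membrane carrier, read 11.41 and 11.63 against 9.25 and 9.13 and fell by 2.33 ± 0.10, or 5.01-fold. Ang, the secreted ribonuclease angiogenin, read 10.58 and 10.54 against 6.36 and 6.42 and fell by 4.17 ± 0.12, or 18.0-fold (adjusted p = 7.45e-15). None of these groups overlapped. Rnase4, which shares promoters with Ang in mouse, rose by 0.31 ± 0.08 and did not pass without the second double-knockout array or either SHP-/- array (0.29 to 0.31). Supt16, a subunit of the histone chaperone FACT, read 7.84 and 7.91 against 4.80 and 4.78 and was at least 8.21-fold lower by its brighter probe, but its other probe was -0.22 ± 0.15 (adjusted p = 0.333). The uncharacterised 1700123O20Rik was at least 3.51-fold lower, and Fam25c fell by 2.06 ± 0.10.

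Ang, Supt16, 1700123O20Rik and Fam25c lie on chromosome 14, a pattern noticed after the values were seen and described without a test. On that chromosome 13 of 266 tested genes fell at least 2-fold by the fitted difference (4.89%), against 0 to 2.44% on the others. In the comparison here, in FXR-/- against wild type at 5 weeks and in the double knockout against SHP-/- at 3 weeks alike, 24 genes fell at least 2-fold, and 8 of them are on chromosome 14. In the latter comparisons 1.77% and 1.36% of all tested genes fell that far, and 1.5% and 2.23% rose that far. Besides the 4 named these are Gdf2, a BMP ligand (at least 1.92-fold lower), Lrit1 (at least 2.52-fold lower), Ndrg2 (-1.65) and Psmb5, a proteasome subunit (-1.42). In the order of tested genes along the chromosome (GRCm38.p6) they take places 84 to 139 of 266. Of the 20 tested genes nearest Supt16 7 passed and 4 fell at least 2-fold. Of the 20 nearest the deleted gene Nr1h4, on chromosome 10, 4 passed and 1 fell at least 2-fold, Amdhd1 of histidine breakdown (-1.34).

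**Figure D4:**
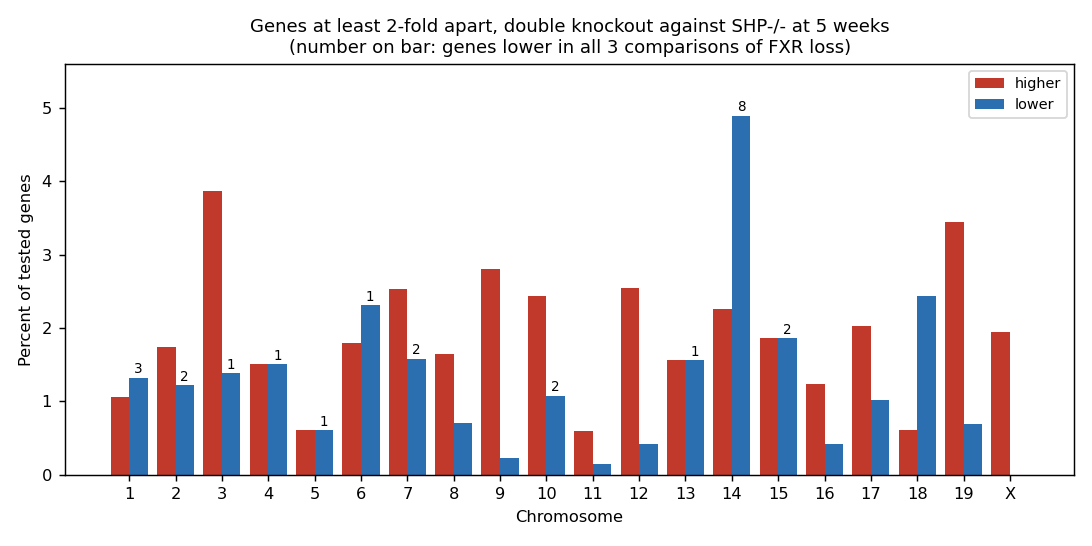
Percent of the tested genes of each chromosome that were at least 2-fold higher or lower in the double knockout than in SHP-/- at 5 weeks. On chromosome 14 4.89% of 266 genes were lower, against at most 2.44% elsewhere.

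FXR loss was then compared between livers without and with SHP. FXR-/- against wild type at 5 weeks changed 1306 of the same genes (17.2%), 676 higher (8.92%) and 630 lower (8.32%). Both comparisons called 522 genes in the same direction, 298 higher and 224 lower, and 135 in opposite directions. With median scaling in place of quantile normalization 442 were shared, 213 higher and 229 lower. The shared genes are 29.4% of those changed without SHP and 40.0% of those changed with it. Across genes, which are not independent replicates, the differences correlated with r = 0.28, and with r = 0.39 without pancreas, gut and muscle genes. The difference between the effects was tested itself and passed for 1017 genes (13.4%), in 592 of which (7.81% of all genes) the effect was more positive without SHP and in 425 (5.61%) more negative. With median scaling the split was 651 to 285.

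Cyp7a1 read 8.55 and 8.72 in wild type and 11.53 and 11.50 in FXR-/-, a rise of 2.88, against 1.64 without SHP. The difference was -1.24 ± 0.15 (adjusted p = 6.69e-06), with close levels in both groups that lack FXR and a higher level in SHP-/- than in wild type. Cyp17a1 read 5.57 and 5.73 in wild type and 6.37 and 6.20 in FXR-/-, a rise of 0.63, and the effect was larger without SHP by 3.28 ± 0.15 (adjusted p = 8.85e-12). Sult2a2 rose by 3.94 with SHP and by 6.94 without it, a difference of 2.99 ± 0.15 (adjusted p = 2.54e-11). Cyp2b13 was detected in neither wild type nor FXR-/-, and the difference between its effects passed the test (adjusted p = 2.94e-14), with no size given because only the double knockout was measured. Cyp2b9 read 5.16 and 5.34 in wild type and 4.31 and 4.19 in FXR-/-, where it was not detected, and the difference between its effects also passed (adjusted p = 7.1e-14). Cyp2c55 fell by 1.38 with SHP, and its effects differed by 5.06 ± 0.19 (adjusted p = 6.82e-13). Apoc2 fell by 2.71 with SHP and by 1.04 without, a difference of 1.67 ± 0.17 (adjusted p = 1.11e-06). For Abcb11 the effects were -0.95 and -1.22, and the difference of -0.27 ± 0.13 did not pass (adjusted p = 0.206). Cdkn1a fell by 1.72 with SHP and rose by 1.86 without.

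By group, 10 of 22 targets of CAR and PXR rose and 5 fell in FXR-/- against wild type. The effects differed between backgrounds for 13 of them, to be read here and below against 13.4% of all genes. Of 10 female-biased genes 2 rose and 2 fell with SHP present, and 8 differed. Of these 10 genes 3 were included only through the double knockout, where they are high, as were 2 of the targets of CAR and PXR. That fixed the direction of their effect without SHP. Of 15 targets of NRF2 10 rose with SHP present, none fell, and 8 differed. Of 18 cholesterol synthesis genes 10 rose and none fell with SHP present, whereas none rose and 5 fell without it, and 12 differed. Pancreas genes differed for 25 of 25 and muscle genes for 21 of 21. Of the pancreas genes 20 were included only through SHP-/-, where they are high, so the direction of their effect without SHP was fixed by that. The part of tissue content in other genes was not tested.

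**Figure D5:**
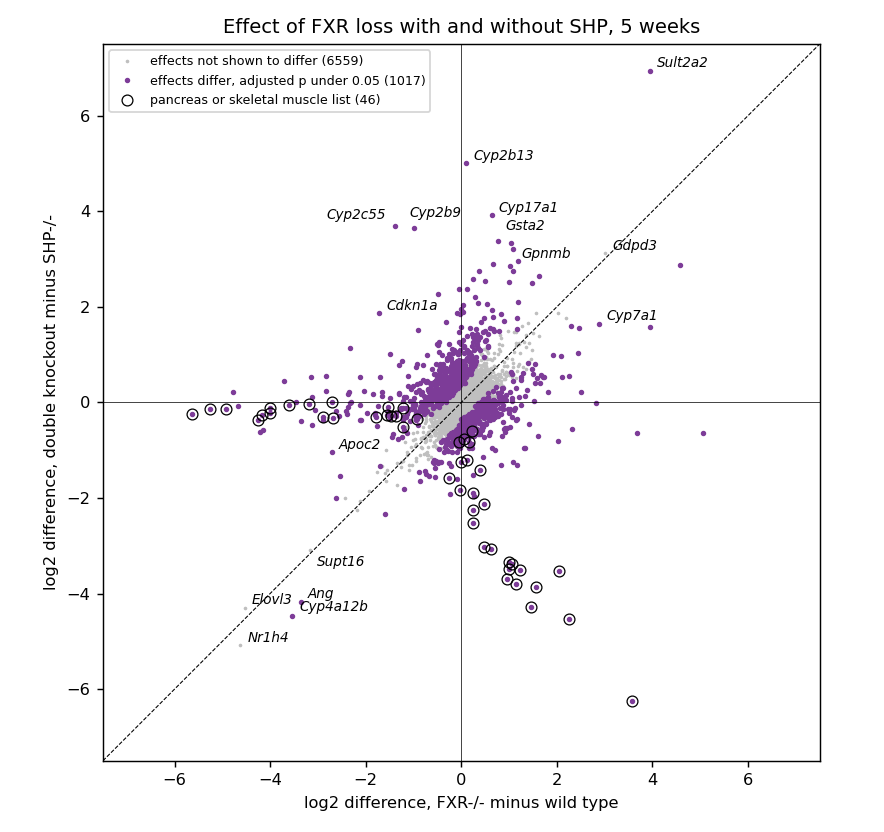
Log2 difference on FXR loss at 5 weeks without SHP (double knockout minus SHP-/-) against that with SHP (FXR-/- minus wild type), 1 point per gene. The effects differed for 1017 genes, and Cyp17a1 lies at 3.91 without SHP and 0.63 with it. Differences against undetected groups are plotted as fitted.

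At 3 weeks the double knockout differed from SHP-/- in 1923 genes (25.4%), with 13.1% higher and 12.3% lower. In the same direction at both ages were 847, or 47.7% of those changed at 5 weeks and 44.0% of those at 3 weeks, with r = 0.49 across genes, and 78 were opposite. The effect differed between ages for 735 genes (9.7%), and for 566 with array weights. Those weights were lowest for the double-knockout arrays of 3 weeks, at 0.379 each. The biotin labelling control of the second of these read 1850.6, against 3186.7 on the first. Each age lies on 1 slide, so slide and age cannot be told apart, but each contrast lies within a slide. Cyp2b13 and Cyp2b9 were 0.15 and 0.13 at 3 weeks, short of the threshold, with high levels in both groups. Mean log2 intensities were then 9.07 in SHP-/- and 9.22 in the double knockout for Cyp2b13, and 10.70 and 10.83 for Cyp2b9. At 5 weeks they were 4.38 and 9.39 for Cyp2b13 and 6.58 and 10.24 for Cyp2b9, so SHP-/- differed more between ages. The difference between ages passed for both, by 3.52 ± 0.15 (adjusted p = 7.78e-12) for Cyp2b9 and with adjusted p = 5.52e-14 for Cyp2b13, which was not detected in SHP-/- at 5 weeks. Sult2a2 rose by 1.52 at 3 weeks, 5.42 ± 0.15 (adjusted p = 1.78e-14) less than at 5. Elovl3 was detected in neither group at 3 weeks, and the difference between ages passed (adjusted p = 1.79e-11). Cyp7b1 rose by 0.94 at 3 weeks and fell at 5, a difference of -1.71 ± 0.17 (adjusted p = 9.29e-07). Cell cycle genes rose at 3 weeks in 18 of 20 cases, and 14 differed between ages. Muscle genes differed for 21 of 21 and pancreas genes for 24 of 25. Of the latter, 20 were included only through SHP-/- at 5 weeks, which fixed the direction of their effect at that age. Gdpd3, a lysophospholipase, rose in all 3 comparisons. It was not detected in SHP-/- at either age and was at least 7.99-fold higher in the double knockout at 5 weeks.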

How the data were processed

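Liver RNA was read on Illumina mouse Ref-8 bead arrays. Per the file headers the deposited unnormalized table gives, for each probe and array, a mean bead intensity, its standard error and a detection p-value, exported with BSGX 3.2.3, and the submitters' processing notes name BeadStudio; bead numbers (16 columns) were not used. The deposited processed table holds log2 values with an equal median on every array (6.22), whose transform is not given in the sources used here, and served as an alternative. Each of its columns correlated with the log2 intensity of its own array at r = 0.9887 to 0.9953.

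The neqc function of limma 3.58.1 (R 4.3.3, offset 16) corrected background and quantile normalized the arrays. A linear model with 1 mean per group was fitted to all 16 arrays with limma (eBayes with trend, 8 residual degrees of freedom), on the 10182 included probes, and p-values were adjusted over these by Benjamini-Hochberg. Of 24613 probes 20984 had 1 gene name in the platform's annotation, 1 several and 3628 none. The fit was tested on simulated data. The text names a core panel of 19 genes that includes both deleted ones, the 8 strongest rises and 8 strongest falls outside neighbouring tissue lists, up to 3 changed members per list, and further genes chosen after their values were seen. Members and lists were chosen with earlier results of these data known. Replicate numbers do not pair arrays: deviations of same-numbered arrays correlated at -0.06. The number of arrays limits the precision. Alternatives changed background correction, scaling, filter, samples, weights, prior, probe summary and block, and left out each array.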

Additional observations from a re-analysis of the deposited data

Results flagged for a closer look

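The effect of FXR loss at 5 weeks differed between livers without and with SHP for several named genes, by the test of the difference itself at an adjusted p under 0.05 (limma). As log2 effect without SHP minus log2 effect with SHP, the P450 and conjugation genes gave Cyp2c55 5.06, Cyp2b13 4.90, Cyp2b9 4.65, Cyp17a1 3.28, Sult2a2 2.99, Gsta2 2.60 and Gsta1 2.30. The values of genes of bile acid synthesis, conjugation and transport were Cyp7a1 -1.24, Cyp7b1 -0.83, Cyp8b1 -0.40, Slc27a5 0.48, Abcc2 0.76, Slc10a1 -0.83 and Slc51b -0.62. The other genes were Ang -0.81, Apoc2 1.67, Cyp4a12b -0.94, Gpnmb 2.14 and Slc46a3 -0.72. The values of Cyp2b13, Cyp2b9, Gpnmb and Slc51b are fitted differences in which at least 1 group was not detected, so their sizes are not measured. Positive values mean that the double knockout stood higher against SHP-/- than FXR-/- against wild type.

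The effect of FXR loss on livers without SHP differed between ages by the same kind of test. As log2 effect at 5 weeks minus that at 3 weeks, the P450 and conjugation genes gave Cyp17a1 1.03, Cyp2b13 4.86, Cyp2b9 3.52, Cyp2c55 1.86, Gsta1 1.79, Gsta2 2.05 and Sult2a2 5.42. The other genes gave Ang 0.72, Cyp4a12b -3.01, Cyp7a1 0.61, Cyp7b1 -1.71, Elovl3 -4.08, Gpnmb 2.0, Nr1h4 1.81 and Slc51b 0.59. The values of Cyp2b13, Cyp4a12b, Elovl3, Gpnmb, Nr1h4 and Slc51b again include at least 1 undetected group. For Nr1h4 the positive value goes with a signal that was detected in the double knockout at 5 weeks and not at 3 weeks. Exocrine pancreas and muscle genes moved with both of these contrasts, and their part in the values here was not tested.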

How the results depend on the processing

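The count of 1776 changed genes was 1140 to 1982 over the settings tried, 1140 to 1388 when an array was left out and 1663 with only the 4 arrays compared. The lowest came without the first SHP-/- array, where the fit has fewer arrays and assumes that the lone array varies like the others. The 232 genes changed at least 2-fold were 142 with quantile normalization without background correction and 119 in the processed table of the authors, and 231 to 248 when an array was left out. Leave-one-out ranges were 753 to 890 for the difference between backgrounds, 519 to 620 for that between ages, 379 to 444 for genes shared by both backgrounds and -5.23 to -4.94 for Nr1h4. With the replicate block the counts were 1695 changed genes, 954 and 686 for the differences and 493 shared genes. Without pancreas, gut and muscle genes 1741 genes passed and 207 by at least 2-fold, and without chromosome 14 1704 and 213. Without the second double-knockout arrays of both ages, an alternative added after seeing the data as was that for chromosome 14, 1740 passed. Over 195 named genes and 3281 combinations of gene and setting, 3186 kept their side of the threshold, 91 lost the call and 4 gained one. None that was called in the main fit turned its direction. A gene called in neither fit counts as kept even where its direction turned. Cyp8b1 was 0.19 with median scaling (adjusted p = 0.149), and Supt16 was -0.22 when only probes detected on all 4 arrays were used, since its dimmer probe then stands for it; the cause of other changes was not tested. The difference between backgrounds or ages could not be fitted with only the 4 arrays compared, nor that between ages with only the arrays of 5 weeks. Signals near the negative controls limit folds to bounds.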

Other observations

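The genes of this and the next paragraph are single genes picked after their values were seen, and for this paragraph no list of their kind was counted. The next one names macrophage genes, and of 17 macrophage and neutrophil genes counted above 5 rose and 12 did not pass. Socs2, an inhibitor of the growth hormone receptor, read 9.21 and 9.45 in SHP-/- and 8.19 and 7.97 in the double knockout and fell by 1.25 ± 0.12 (adjusted p = 4.77e-07), while it rose by 1.07 in FXR-/- against wild type. Cish, a related inhibitor, fell by 1.31 ± 0.09 without SHP and rose by 1.17 with it. Igf1, the growth factor that the hormone induces in liver, fell by 0.40 ± 0.10 (adjusted p = 0.00681) and missed the threshold at -0.30 without the first double-knockout array (adjusted p = 0.0844) and -0.35 without the first SHP-/- array (adjusted p = 0.0704).

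Mmp13, a collagenase, Mmp12, the macrophage elastase, and Trem2, a receptor of lipid-associated macrophages, were not detected in SHP-/- and were at least 5.73-fold, at least 3.87-fold and at least 1.72-fold higher in the double knockout. Cd63, a lysosomal tetraspanin, rose by 2.51 ± 0.10 and Lgals1, galectin 1, by 1.65 ± 0.08. Cd63 and Lgals1 are among 18 genes that rose at least 2-fold in all 3 comparisons of FXR loss.

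Of 1213 genes with several included probes, 486 had a changed probe and 5 had probes changed in opposite directions: Acaa2, Lrrc61, Hp, Esd and Acin1. Of 1134 included probes without 1 gene name 135 were higher and 143 lower, beside 1235 higher and 1158 lower of all 10182 included probes.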
